A study of Bos taurus with 4 samples.

Results

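Fatty acid oxidation genes were followed in single-nucleus RNA sequencing of fat from 2 cattle. The 10 genes were CPT1A, CPT1B, CPT2, ACADM, ACADVL, HADHA, HADHB, ACAA2, PPARA and ACACB. They were chosen by name, as members of the pathway, and all 10 were found once among the 21861 features of the count matrices, of which 16594 had at least 1 UMI (a single counted RNA molecule). The cattle came from a commercial feedlot, received no treatment, and had no stated diet, age or breed. Each animal gave 1 library of intramuscular fat, the fat that lies between muscle fibres, and 1 library of subcutaneous back fat, so that each depot had 2 libraries. Nuclei were freed by Dounce homogenisation, a step meant to leave RNA of the cytoplasm behind. The counts still held mitochondrially encoded RNA, and muscle fibre RNA in nuclei of other types, as given below.

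Fatty acid oxidation breaks long acyl chains into acetyl-CoA inside mitochondria. Carnitine palmitoyltransferases carry the acyl groups in, acyl-CoA dehydrogenases start each round of shortening, the trifunctional protein and a thiolase finish it, and malonyl-CoA made at the outer mitochondrial membrane holds back the entry step. Skeletal muscle, above all its slow fibres, is known as a heavy user of this pathway, while white adipocytes mainly store and release fatty acids.

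Nuclei were sorted into types by marker genes that did not include the 10 genes. Kept nuclei numbered 1774 (animal 1) and 63 (animal 2) in intramuscular fat, and 874 (animal 1) and 6126 (animal 2) in subcutaneous fat, with 105481 to 4006966 UMIs per library. Adipocyte nuclei numbered 751 and 42 in the intramuscular and 132 and 36 in the subcutaneous libraries. Muscle fibre nuclei numbered 56 and 4280 in the subcutaneous libraries and 0 in both intramuscular ones. The libraries labelled subcutaneous were thus the ones that held muscle, and every direction between depots below rests on the depot labels as given. The intramuscular fat of animal 2 gave a library unlike the others, with 63 nuclei and a mitochondrially encoded share of 0.0133% of UMIs, against 1.24% to 1.65% in the other libraries. Of the kept barcodes, 4 occurred in a pair of libraries.

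The marker genes fitted the names of the types. All 13 adipocyte markers had UMIs in the adipocyte nuclei of every library and took 1.21% to 1.51% of their UMIs, against 0.0493% and 0.0169% in the fibre nuclei of animals 1 and 2. The 23 muscle fibre markers took 29.1% and 28.6% of UMIs in fibre nuclei. In adipocyte nuclei they took 0.00549% and 0.0197% in the intramuscular libraries of animals 1 and 2, where 14 and 7 of the 23 had a UMI and the fibre genes CKM, ACTN2, ACTN3, MYH2, MYH7 and TNNT1 were at 0 in both. In the subcutaneous adipocyte nuclei of animals 1 and 2 they took 1.12% and 8.82%, with a UMI from each of the 23. Blood endothelial nuclei, which should lack fibre genes, had 0.942% and 8.04% in the same libraries. Muscle RNA in the subcutaneous adipocyte nuclei therefore moves with every comparison of them with fibre nuclei below, and its part in the result was not tested unless a value without it is given.

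Levels are given in CPM, the UMIs of a gene per 1000000 UMIs of the nuclei summed. Summed over the 10 genes, adipocyte nuclei held 2034 and 1809 CPM in the intramuscular libraries of animals 1 and 2, against 1651 and 1024 in the subcutaneous ones. Fibre nuclei held 1000.2 CPM in animal 1 and 986 CPM in animal 2, both from subcutaneous fat. The 4 adipocyte values were all above both fibre values, though in animal 2 the subcutaneous pair lay close. This order is not particular to the 10 genes. In the subcutaneous libraries, scaled by totals as here, the median log2 fold change of adipocyte over fibre nuclei was 1.68 for all genes tested. It was 0.46 for the 6 of the 10 genes that were tested. Nuclei of progenitors, the stromal cells able to become adipocytes, held 751 to 1086, and blood endothelial nuclei 681 to 1062.

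**Figure D1:**
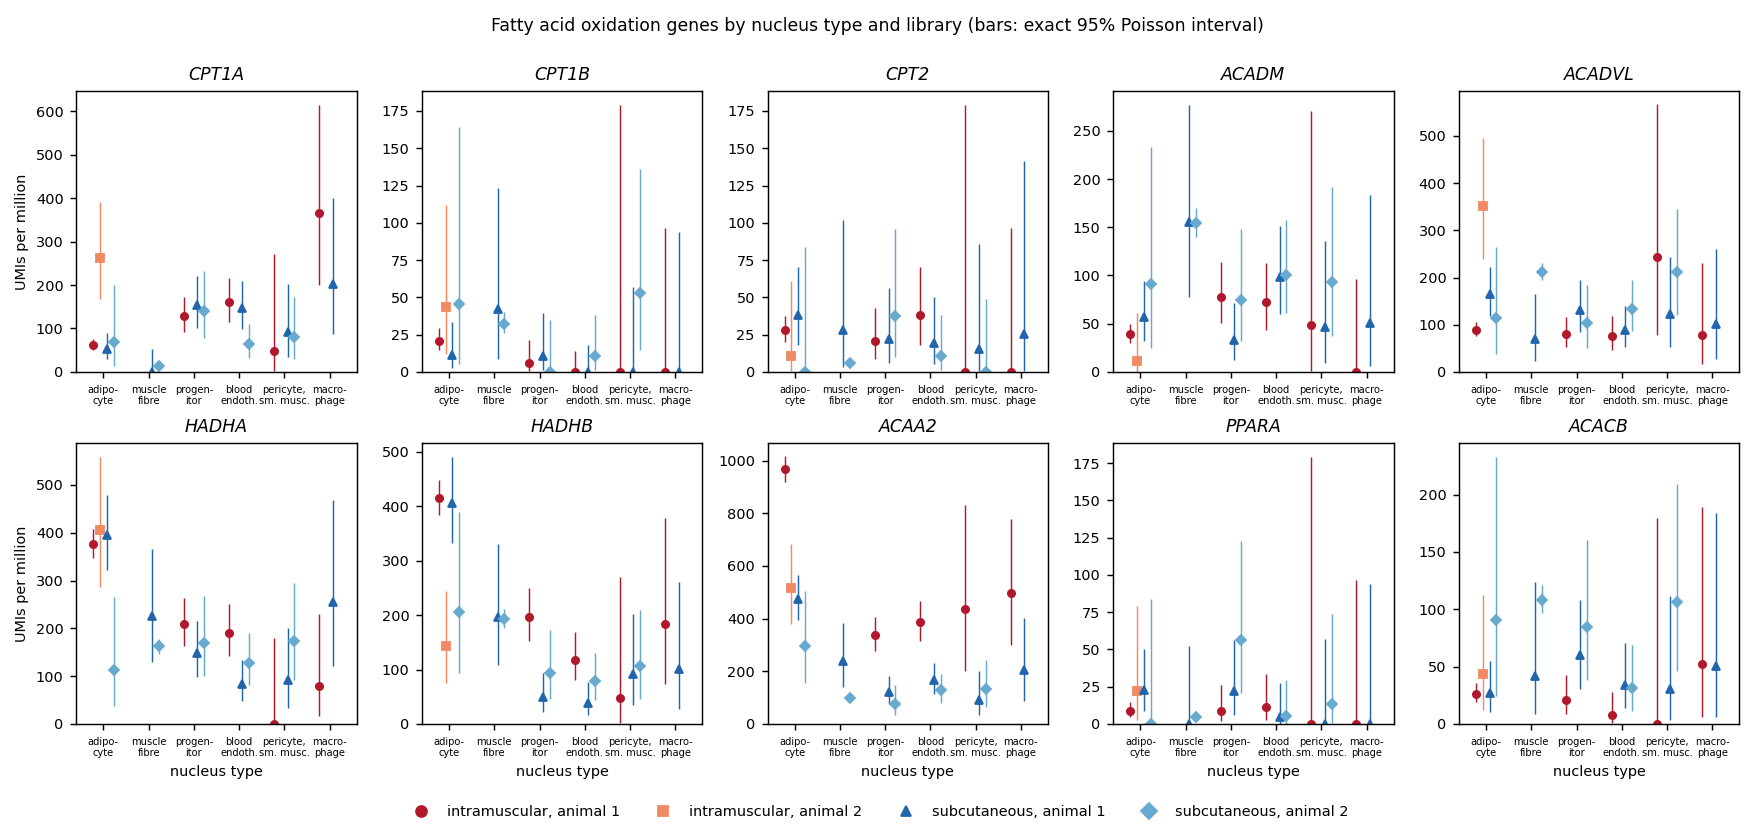
Level of each of the 10 genes in UMIs per 1000000 UMIs, or CPM (vertical axis, from 0) by nucleus type (horizontal axis), with 1 point per library that held at least 10 nuclei of the type and bars for the exact 95% Poisson interval of the count. ACAA2 sits at 296 to 968 in the 4 adipocyte sums, against 239 and 99.2 in the 2 fibre sums, and CPT1A at 53.6 to 263 in adipocyte sums, against 0 and 14.0 in fibre sums.

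CPT1A and CPT1B encode the outer-membrane carnitine palmitoyltransferases that set the rate of entry. CPT1A is known as the liver form, found in most tissues, and CPT1B as the muscle form. CPT1A stood at 62.3 and 263 CPM in the intramuscular adipocyte nuclei of animals 1 and 2, and at 53.6 and 68.3 in the subcutaneous ones. In fibre nuclei it had 0 UMIs in animal 1, which allows up to 42.3 CPM, and 14.0 CPM (38 UMIs) in animal 2. Every adipocyte value was above both fibre values, but in the subcutaneous library of animal 2 the ratio of 4.89 (95% interval 0.965 to 15.4) rested on 3 adipocyte UMIs.

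Adipocyte nuclei were not the type with the most CPT1A. Progenitor nuclei had 128 CPM in the intramuscular library of animal 1, 153 in its subcutaneous library and 141 in the subcutaneous library of animal 2. Blood endothelial nuclei had 160, 147 and 63.6 CPM in the same order. Macrophage nuclei had 367 CPM (14 UMIs) in the intramuscular and 204 (8 UMIs) in the subcutaneous library of animal 1. Within the intramuscular library of animal 1 the adipocyte level was 0.486 times the progenitor level (95% interval 0.337 to 0.712) and 0.389 times the endothelial level (0.269 to 0.571). Within the subcutaneous library of animal 1 these ratios were 0.350 (0.170 to 0.687) and 0.365 (0.179 to 0.709). Adipocyte nuclei were thus the lowest of these 3 types in both libraries of animal 1. In the subcutaneous library of animal 2, with 3 adipocyte UMIs, the ratio was 0.485 to progenitor (0.0901 to 1.72) and 1.07 to endothelial nuclei (0.194 to 3.98), both with intervals that span 1. These intervals, like the others on ratios and levels, cover counting error only.

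Over all libraries the order of mean CPT1A levels was macrophage, progenitor, blood endothelial, adipocyte, pericyte and smooth muscle, and fibre nuclei. The mean was 141 ± 12.6 CPM in progenitor (SD, n = 3), 124 ± 52.5 in endothelial (SD, n = 3) and 112 ± 101 in adipocyte nuclei (SD, n = 4). These neighbours did not differ beyond their spread, which in adipocyte nuclei came from the 263 of the intramuscular library of animal 2. The fibre mean was 6.98 ± 9.87 (SD, n = 2).

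CPT1B was sparse in every type. It stood at 21.0 and 43.8 CPM in the intramuscular adipocyte nuclei of animals 1 and 2 (34 and 4 UMIs) and at 11.5 and 45.5 in the subcutaneous ones (3 and 2 UMIs). Fibre nuclei had 42.3 and 32.3 CPM in animals 1 and 2 (3 and 88 UMIs). The adipocyte and fibre values overlapped. No CPT1B UMI was seen in the macrophage nuclei, nor in the endothelial nuclei of the libraries of animal 1, where the intramuscular endothelial count of 0 allows up to 11.5 CPM. The macrophage sums held 38146 (intramuscular) and 39301 UMIs (subcutaneous) in animal 1, too few for a count of 0 to exclude the fibre levels.

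The balance between the pair differed by type. CPT1B made up 25.2% of the CPT1A and CPT1B UMIs (95% interval 18.1 to 33.4, exact Clopper-Pearson) in the intramuscular adipocyte nuclei of animal 1, and 14.3% (4.03 to 32.7) in those of animal 2. In the subcutaneous adipocyte nuclei it made up 17.6% (3.80 to 43.4) in animal 1 and 40.0% (5.27 to 85.3) in animal 2. In fibre nuclei the share was 100% in animal 1, from 3 UMIs, and 69.8% (61.0 to 77.7) in animal 2. The interval of the fibre nuclei of animal 2 lay above those of 3 of the 4 adipocyte sums and within that of the subcutaneous adipocyte nuclei of animal 2, which rested on 5 UMIs. Progenitor nuclei had 4.44%, 6.67% and 0%, and endothelial nuclei 0%, 0% and 14.3%, in that order of libraries. In the intramuscular library of animal 1, whose muscle marker share was 0.00953%, the adipocyte share of CPT1B had an interval above those of the progenitor (0.543 to 15.1) and endothelial nuclei (0 to 8.41).

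CPT2, the inner-membrane transferase that rebuilds acyl-CoA in the matrix, stood at 27.8 and 11.0 CPM in the intramuscular adipocyte nuclei of animals 1 and 2, and at 38.3 and 0 in the subcutaneous ones. Fibre nuclei had 28.2 and 5.88 CPM in animals 1 and 2. The groups overlapped, and the 0 in the subcutaneous adipocyte nuclei of animal 2 allows up to 68.3.

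**Figure D2:**
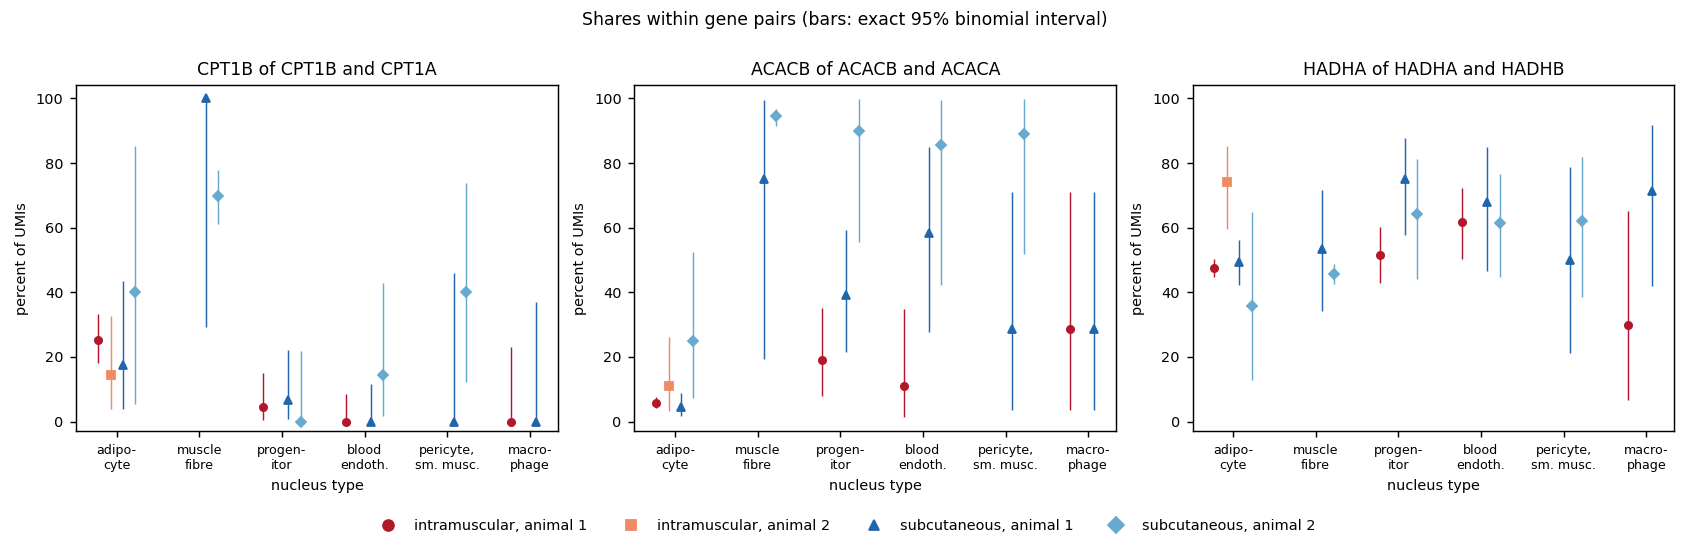
Share of UMIs, in percent (vertical axis, 0 to 100), of CPT1B within CPT1A and CPT1B, of ACACB within ACACA and ACACB, and of HADHA within HADHA and HADHB, by nucleus type and library, with exact 95% binomial intervals. The CPT1B share is 14.3% to 40.0% in adipocyte nuclei and 69.8% and 100% in fibre nuclei, and the ACACB share is 4.43% to 25.0% in adipocyte and 75.0% and 94.6% in fibre nuclei.

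ACADM, the medium-chain acyl-CoA dehydrogenase, stood at 38.9 and 11.0 CPM in the intramuscular adipocyte nuclei of animals 1 and 2, and at 57.5 and 91.0 in the subcutaneous ones. Fibre nuclei had 155 and 154 CPM in animals 1 and 2. All 4 adipocyte values lay below both fibre values. Within the subcutaneous libraries the adipocyte level was 0.371 times the fibre level in animal 1 (0.159 to 0.892) and 0.590 times in animal 2 (0.160 to 1.52), where it rested on 4 adipocyte UMIs. Endothelial nuclei had 72.6 to 101 and progenitor nuclei 32.9 to 77.5 CPM, also below the fibre values.

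ACADVL, the very long-chain dehydrogenase of the inner membrane, gave no such order. It stood at 89.5 and 351 CPM in the intramuscular adipocyte nuclei of animals 1 and 2, and at 165 and 114 in the subcutaneous ones. Fibre nuclei had 70.4 and 212 CPM in animals 1 and 2. The adipocyte level was 2.34 times the fibre level in animal 1 (0.928 to 7.56) and 0.537 times in animal 2 (0.174 to 1.26), opposite in direction and each with an interval that spans 1.

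HADHA and HADHB encode the alpha and beta subunits of the mitochondrial trifunctional protein and are next to each other in the RefSeq gene table. HADHA stood at 377 and 406 CPM in the intramuscular adipocyte nuclei of animals 1 and 2, and at 395 and 114 in the subcutaneous ones. Its level in fibre nuclei was 225 and 162 CPM in animals 1 and 2. The subcutaneous value of animal 2, from 5 UMIs, was the only adipocyte value below the fibre values. The other 3 adipocyte values lay above both.

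HADHB stood at 415 and 143 CPM in the intramuscular adipocyte nuclei of animals 1 and 2, and at 406 and 205 in the subcutaneous ones, against 197 and 193 in the fibre nuclei of animals 1 and 2. The groups overlapped, with the intramuscular value of animal 2 (13 UMIs) below both fibre values. Within the subcutaneous libraries it was 2.06 times as high in adipocyte as in fibre nuclei in animal 1 (1.17 to 3.89) and 1.06 times in animal 2 (0.482 to 2.03). In animal 1 the adipocyte level also exceeded that of endothelial nuclei, 3.50-fold in the intramuscular library (2.45 to 5.20) and 10.4-fold in the subcutaneous one (5.07 to 24.6). In the subcutaneous library of animal 2 this ratio was 2.58 (0.994 to 6.28), an interval that spans 1. HADHA made up 47.6% (44.9 to 50.4) of the UMIs of the pair in the intramuscular adipocyte nuclei of animal 1 and 45.6% (42.4 to 48.8) in the fibre nuclei of animal 2. In the intramuscular adipocyte nuclei of animal 2 it made up 74.0% (59.7 to 85.4), an interval above both of those.

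ACAA2, the mitochondrial thiolase that splits off acetyl-CoA at the end of each round, stood at 968 and 515 CPM in the intramuscular adipocyte nuclei of animals 1 and 2, and at 475 and 296 in the subcutaneous ones. Fibre nuclei had 239 and 99.2 CPM in animals 1 and 2. All 4 adipocyte values lay above both fibre values. Within the subcutaneous libraries the adipocyte level was 1.98 times the fibre level in animal 1 (1.19 to 3.51) and 2.98 times in animal 2 (1.57 to 5.19). Against progenitor nuclei the ratio was 2.87 in the intramuscular library of animal 1 (2.37 to 3.51) and 3.94 in the subcutaneous libraries of both animals (2.49 to 6.52 in animal 1, 1.51 to 11.0 in animal 2). Adipocyte nuclei had the highest mean, 563 ± 286 (SD, n = 4), with macrophage nuclei next at 351 ± 208 (SD, n = 2), a gap within the spread. CPT1A, ACADM and ACAA2 were the 3 of 7 members tested whose 4 adipocyte and 2 fibre values did not overlap, while 70.4% of the 4768 genes tested did not overlap either.

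PPARA, the nuclear receptor that switches on oxidation genes when fatty acids bind, was near the limit of detection. It stood at 8.64 and 21.9 CPM in the intramuscular adipocyte nuclei of animals 1 and 2 (14 and 2 UMIs), and at 23.0 and 0 in the subcutaneous ones. Fibre nuclei had 0 and 4.78 CPM in animals 1 and 2. A difference between adipocyte and fibre nuclei was not detectable at this depth. Progenitor nuclei had the highest mean, 29.0 ± 24.5 CPM (SD, n = 3). Their level was 11.8 times the fibre level in the subcutaneous library of animal 2 (3.67 to 33.2, from 6 and 13 UMIs). In that of animal 1 they had 4 UMIs against 0, with an interval that reaches below 1.

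ACACB, the acetyl-CoA carboxylase whose malonyl-CoA inhibits the CPT1 enzymes, stood at 26.5 and 43.8 CPM in the intramuscular adipocyte nuclei of animals 1 and 2, and at 26.8 and 91.0 in the subcutaneous ones. Fibre nuclei had 42.3 and 108 CPM in animals 1 and 2. The groups overlapped, and within the subcutaneous libraries the adipocyte level was 0.634 times the fibre level in animal 1 (0.145 to 3.80) and 0.840 times in animal 2 (0.227 to 2.17).

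Its partner ACACA, the cytosolic carboxylase of fat synthesis, gave a wider contrast. ACACB made up 5.74% (4.19 to 7.66) of the UMIs of both carboxylases in the intramuscular adipocyte nuclei of animal 1 and 11.1% (3.11 to 26.1) in those of animal 2. In the subcutaneous adipocyte nuclei its share was 4.43% (1.80 to 8.92) in animal 1 and 25.0% (7.27 to 52.4) in animal 2. In fibre nuclei it was 75.0% in animal 1, from 4 UMIs, and 94.6% (91.4 to 96.8) in animal 2. No adipocyte value reached a fibre value. The ACACB share moved with muscle RNA in blood endothelial nuclei. It was 11.1% in the intramuscular library of animal 1, 58.3% in the subcutaneous library of animal 1 and 85.7% in that of animal 2. The muscle marker shares there were 0.0218%, 0.942% and 8.04%. In macrophage nuclei the ACACB share was 28.6%, from 7 UMIs, in both libraries of animal 1, with muscle marker shares of 0% (intramuscular) and 1.37% (subcutaneous). The part of muscle RNA in those shares was not tested.

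A test over all genes was then run on adipocyte against fibre nuclei, with the UMIs of each type summed in the subcutaneous libraries of animals 1 and 2 (2 sums per type). Of 3579 genes tested with edgeR's quasi-likelihood test at a Benjamini-Hochberg adjusted p under 0.05, 60.3% were called, 32.4% as higher and 27.9% as lower in adipocyte nuclei. Of the 10 genes, 6 passed the count filter, 0 were called higher and 2 were called lower, a number near the background. On the log2 scale ACADM fell by 2.34, with an SE of 0.73 and an adjusted p of 0.00331 in edgeR. ACACB fell by 2.35, with an SE of 0.73 and an adjusted p of 0.00335 in edgeR. The other 4 tested genes did not pass: ACADVL had -1.34 (SE 0.65), HADHA -0.52 (SE 0.62), HADHB -0.41 (SE 0.63) and ACAA2 0.35 (SE 0.63). The median log2 fold change of the 6 was -0.93, beside 0.21 for all genes tested. DESeq2, which called 33.3% of genes, called 0 of the 6 members and had only ACADM at an unadjusted p under 0.05 (adjusted p = 0.0528, DESeq2), while edgeR had ACADM, ACADVL and ACACB there.

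The scaling sets these folds to a large extent. TMM scaling, used in that test, put the median of all genes at 0.21 on the log2 scale, while scaling by library totals alone put it at 1.68 and moved the share of calls that were higher to 81.5%, against 53.8%. With library totals, 70% of genes were called. ACADM then stood at -1.02 (SE 0.55) and ACACB at -1.07 (SE 0.62), neither called, and ACAA2 was called higher at 1.64 (SE 0.55, adjusted p = 0.0125, edgeR). The signs of ACADVL (0.08), HADHA (0.85) and HADHB (0.96) turned, none called. With library totals and the adipocyte nuclei of all 4 libraries, a setting chosen after the data were seen, 3061 of 4768 genes were called. Of these calls 84.3% were higher, and the median log2 fold change of all genes was 1.89. In that setting CPT1A was called higher at 3.22 (SE 0.90, adjusted p = 0.00911, edgeR) and ACADM lower at -1.65 (SE 0.58, adjusted p = 0.0248, edgeR). Relative to the median of all genes, ACADM lay at -2.56 with TMM and -2.69 with totals, ACACB at -2.56 and -2.75, and ACAA2 at 0.13 and -0.04. In these unblocked fits ACADM and ACACB were thus low relative to the other genes under both scalings, and ACAA2 lay close to the median of all genes. ACACB rested on few UMIs, 7 and 4 in the adipocyte and 3 and 295 in the fibre sums of animals 1 and 2. Its ratios within these libraries, 0.634 and 0.840, had intervals that span 1.

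The types of nuclei share their libraries, and with the library as a block 45.4% of genes were called and ACADM had -2.14 (SE 0.75, adjusted p = 0.0136, edgeR) while ACACB lost its call at -1.53 (SE 0.86, adjusted p = 0.130, edgeR). The same fibre sums were set against the intramuscular adipocyte nuclei, which carried 0.00549% and 0.0197% muscle markers but also differ from the others in depot and library, as a comparison chosen after the data were seen. There 22.6% of genes were called, with ACADM at -3.48 (SE 1.07, adjusted p = 0.0107, edgeR) and ACACB at -2.64 (SE 1.02, adjusted p = 0.0456, edgeR). Without the count filter, where 26.5% of genes were called, the 4 genes left out had fitted folds of 1.29 for CPT1A, -1.75 for CPT1B, 1.21 for CPT2 and 1.16 for PPARA, none called. Leaving out any 1 sum leaves 1 sum in its group, and for each such fit the median fold change is given. Without the fibre sum of animal 2, or without the adipocyte sum of animal 1, 5 members passed the count filter and ACACB did not. The median log2 fold change of the 5 was 0.058 without the fibre sum of animal 2, beside 1.02 for all genes. It was -0.99 without the adipocyte sum of animal 1, beside 0.59 for all genes. Without the fibre sum of animal 1 the median log2 fold change of the 9 members tested was -0.98, beside -0.0033 for all genes. Without the adipocyte sum of animal 2 it was 0.22 for 9 members, beside 0.77 for all genes. Over the alternatives in which each was tested, the adjusted p of ACADM lay between 0.000102 and 0.198 and that of ACACB between 6.35e-05 and 0.217 (edgeR or DESeq2).

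**Figure D3:**
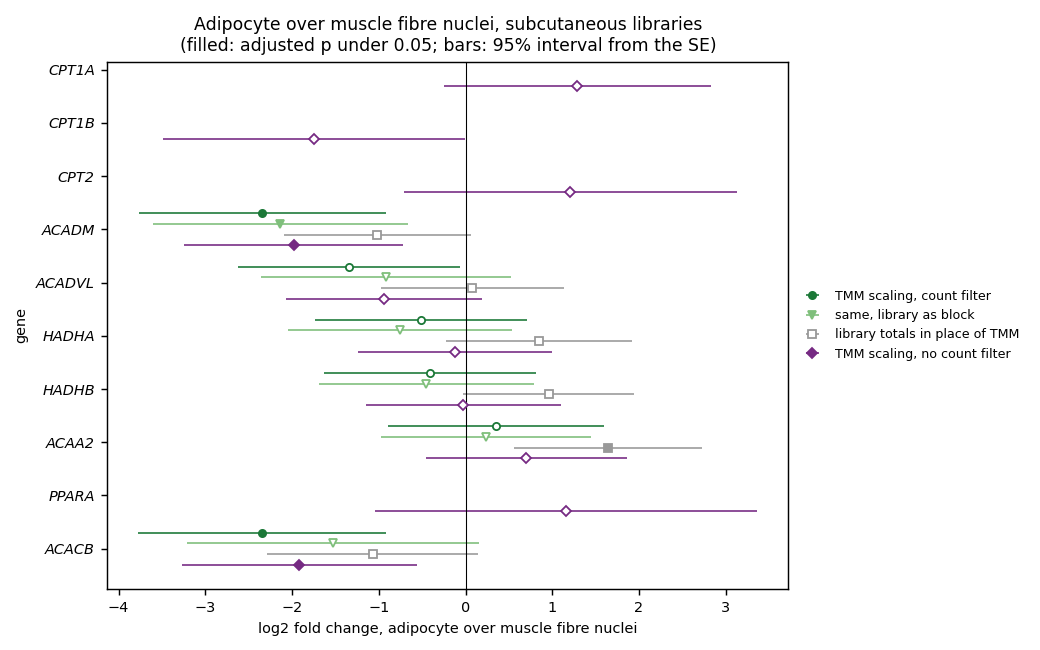
Log2 fold change of adipocyte over muscle fibre nuclei (horizontal axis) for each gene (vertical axis) in the subcutaneous libraries, with bars for the 95% interval from the SE and filled points for an adjusted p under 0.05. ACADM and ACACB lie left of 0 in every version drawn, and HADHA and HADHB change side when library totals replace TMM scaling.

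The other genes of the pathway came from 7 lists of 72 genes, of which 36 passed the filter in that comparison. Of these, 12 were called higher and 7 lower in adipocyte nuclei, near the 32.4% higher and 27.9% lower of all genes, and the short lists below are to be read against the same shares. The median log2 fold change, beside 0.21 for all genes, was 1.85 for peroxisomal genes, 0.38 for synthetases and carnitine carriers, 0.22 for matrix enzymes, 0.15 for receptors and coregulators, 0.03 for malonyl-CoA and AMPK genes and -0.82 for PPAR targets. Of the peroxisomal genes, 4 of 7 tested were called higher and 1 lower. ABCD2, a peroxisomal importer of very long acyl-CoA, stood at 118 and 65.8 CPM in the intramuscular adipocyte nuclei of animals 1 and 2, at 249 and 114 in the subcutaneous ones, and at 14.1 and 0.735 in fibre nuclei. It rose by 5.92 (SE 0.90), followed by the peroxisome division gene PEX11A at 3.49 (SE 0.57), the acyl-CoA oxidase ACOX3 at 2.96 (SE 0.73) and the carnitine octanoyltransferase CROT at 1.85 (SE 0.45). SCP2, a sterol carrier with thiolase activity, fell by 1.84 (SE 0.66).

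Among genes that set malonyl-CoA or act through AMPK, 2 of 4 tested were called higher and 2 lower. ACACA stood at 436 and 351 CPM in the intramuscular adipocyte nuclei of animals 1 and 2, at 578 and 273 in the subcutaneous ones, and at 14.1 and 6.25 in fibre nuclei. The groups did not overlap, and ACACA rose by 4.67 (SE 0.82, adjusted p = 1.96e-07, edgeR). PRKAG2, an AMPK gamma subunit, rose by 2.26 (SE 0.40). PRKAG3, the gamma subunit known for glycogen in muscle, fell by 3.14 (SE 0.77), and MLYCD, which removes malonyl-CoA, fell by 2.20 (SE 0.70).

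The PPAR target genes were split, with 1 of 7 tested higher and 3 lower. CD36, a fatty acid uptake protein, rose by 3.04 (SE 0.82). FABP3, the fatty acid carrier of heart and muscle, fell by 3.98 (SE 0.82), the pyruvate dehydrogenase kinase PDK4 by 2.29 (SE 0.70) and the lipoprotein receptor VLDLR by 1.96 (SE 0.67). PDK4 had 582 and 1853 CPM in the intramuscular adipocyte nuclei of animals 1 and 2, above the 324 and 247 of fibre nuclei, while the subcutaneous adipocyte nuclei had 65.1 and 228. With the adipocyte nuclei of all 4 libraries the log2 fold change of PDK4 was 0.03 (SE 1.04) and that of CD36 2.76 (SE 1.08), neither called. TXNIP, the most expressed gene of that list, had 0.50 (SE 0.96) and was not called.

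In the remaining lists the calls were few. The acyl-CoA synthetase ACSL1, which activates long-chain fatty acids, rose by 1.97 (SE 0.68), as 1 of 2 tested. Of 9 matrix enzymes, the long-chain dehydrogenase ACADL rose by 1.55 (SE 0.44) and ACAD9, a dehydrogenase relative with a role in building complex I, by 2.21 (SE 0.40), while ECH1, the most expressed of them, had 0.86 (SE 0.63). The electron transfer flavoprotein gene ETFA, the 1 tested of its list, fell by 1.93 (SE 0.71). Of 6 receptors and coregulators, the corepressor NRIP1 rose by 3.13 (SE 0.71) and RXRG by 1.19 (SE 0.47), and RXRA had 0.56 (SE 0.64). Library totals in place of TMM moved the median of all genes from 0.21 to 1.68, a shift that by itself keeps higher calls and weakens lower ones. The higher calls among the genes named held, and FABP3 and PRKAG3 stayed lower. PDK4 (-1.07), MLYCD (-0.72), VLDLR (-0.49), ETFA (-0.60) and SCP2 (-0.46) lost their calls. ACADL and RXRG lost theirs with the library as a block (0.86 and 1.47) and with the adipocyte nuclei of all 4 libraries (0.98 and 0.89).

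Fibre nuclei were further split into slow and fast by the myosin, troponin and calcium pump genes of each fibre type. Slow fibre nuclei numbered 12 in animal 1 and 453 in animal 2, and fast ones 28 in animal 1 and 2424 in animal 2. The split compared scaled scores, and slow here means relatively slow. Slow markers took 10.9% and 6.87% of UMIs in the slow nuclei of animals 1 and 2, against 0.266% and 0.558% in the fast ones. Fast markers took 7.05% and 9.46% in the slow nuclei, against 23.0% and 19.9% in the fast ones, so the slow nuclei of animal 2 held more fast than slow marker RNA. The 10 genes together held 1378 and 1799 CPM in slow nuclei and 781 and 826 in fast ones, so both slow values lay above both fast ones. HADHB stood at 321 and 429 CPM in the slow nuclei of animals 1 and 2, and at 106 and 144 in the fast ones. HADHA stood at 230 and 374 in slow and at 177 and 118 in fast nuclei of animals 1 and 2. Slow and fast values did not overlap for 3 of the 6 genes tested, HADHA, HADHB and ACAA2 (413 and 112 in slow, 106 and 98.6 in fast), nor for 31.7% of all 2087 genes tested. Nor did they overlap for CPT1B, which had 1 UMI in each sum of animal 1 and was not tested.

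In animal 2, which held most of these nuclei, the slow level of HADHA was 3.18 times the fast one (2.51 to 4.01), that of HADHB 2.98 times (2.40 to 3.69), that of ACADM 2.57 times (2.00 to 3.27) and that of ACADVL 1.88 times (1.51 to 2.34). CPT2 had 7 slow and 5 fast UMIs, a ratio of 6.64 (1.81 to 26.5), and CPT1B 17 and 46, a ratio of 1.75 (0.942 to 3.12). ACAA2 and ACACB had ratios of 1.13 (0.769 to 1.63) and 1.10 (0.756 to 1.57), with intervals that span 1. In animal 1, with 0 to 9 UMIs per gene and sum, every ratio that could be formed had an interval that spans 1. ACADM had 0.647 (0.105 to 3.03), ACADVL 1.94 (0.222 to 23.2), HADHA 1.29 (0.298 to 5.62), HADHB 3.02 (0.690 to 18.1) and ACAA2 3.88 (0.969 to 22.3).

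Over both animals the fit called 13 of 2087 genes, 0.623%, and 0 of the 6 members tested. DESeq2 called 0.91% of genes and also 0 members. An unadjusted p under 0.05 was found for HADHB, with a log2 fold change of 1.39 (SE 0.51, edgeR adjusted p = 0.725), and for HADHA, with 1.19 (SE 0.53, edgeR adjusted p = 0.999). With the library as a block, 52 genes or 2.49% were called, and HADHB had 1.43 (SE 0.40, adjusted p = 0.0634, edgeR) and HADHA 1.32 (SE 0.42, adjusted p = 0.139, edgeR), both short of the threshold. ACADM (0.75, SE 0.56), ACADVL (0.72, SE 0.55) and ACAA2 (0.75, SE 0.64) lay on the slow side and ACACB at 0.00 (SE 0.85), without a call. Of the pathway lists, 0 of 29 tested genes were called by edgeR, and with the block only ACOX2, a peroxisomal oxidase, was higher.

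**Figure D4:**
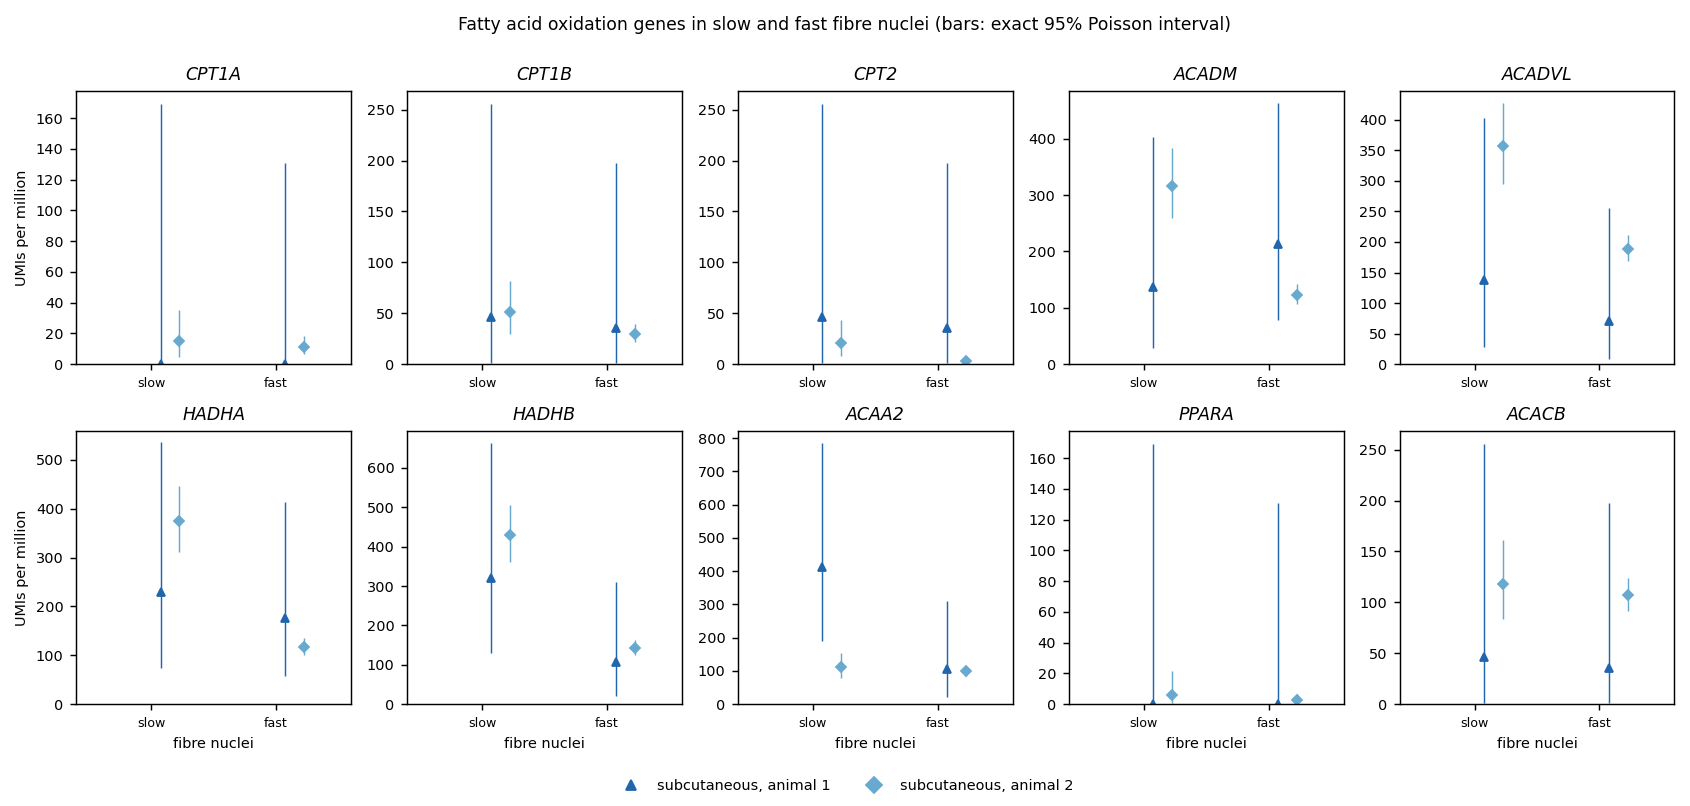
Level of each gene in CPM (vertical axis, from 0) in slow and fast fibre nuclei of the subcutaneous libraries, with exact 95% Poisson intervals. In animal 2, HADHA (374 in slow, 118 in fast) and HADHB (429 in slow, 144 in fast) lie apart, while ACACB (118 in slow, 107 in fast) does not.

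Between depots, whole libraries were compared first. In such sums fewer nuclei of a type and less RNA per nucleus cannot be told apart. ACADM stood at 50.0 and 9.48 CPM in the intramuscular libraries of animals 1 and 2, and at 73.8 and 143 in the subcutaneous ones. ACACB stood at 26.5 and 47.4 in the intramuscular and at 50.9 and 103 in the subcutaneous libraries. ACAA2 stood at 749 and 493 in the intramuscular and at 227 and 101 in the subcutaneous libraries. HADHA stood at 319 and 389 in the intramuscular and at 224 and 158 in the subcutaneous libraries. The depots did not overlap for these 4 of the 10 genes, a share near the 39.3% of all 11143 genes tested that did not overlap.

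None of the 10 genes passed the test between depots. In simulated counts this test recovered 1 of 100 genes changed 8-fold, so a lack of calls says little. Of 11143 genes, 1.53% were called by edgeR, 6 higher and 164 lower in the intramuscular libraries, and 0 of the 10 members. DESeq2 called 3.11% of genes and also 0 members. ACADM, at -2.62 (SE 1.04, edgeR adjusted p = 0.372), and ACACB, at -2.25 (SE 0.96, edgeR adjusted p = 0.421), had an unadjusted p under 0.05 in both tests. ACAA2 had 1.31 (SE 1.09) and CPT1A 0.81 (SE 0.84). The muscle fibre markers moved with these values, at 0.00953% and 0.0199% of UMIs in the intramuscular and 5.56% and 24.7% in the subcutaneous libraries. With fibre and satellite cell nuclei left out of the sums, the count of called genes was 0, with 975 at an unadjusted p under 0.05 in edgeR.

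Of the 67 pathway genes tested between depots, 2 were called, both lower in the intramuscular libraries. FABP3 had 2.58 and 0 CPM in the intramuscular libraries of animals 1 and 2, against 107 and 101 in the subcutaneous ones, and fell by 6.21 (SE 1.15, adjusted p = 0.0337, edgeR). UCP3, the muscle uncoupling protein, had 0 UMIs in both intramuscular libraries, which allows up to 1.10 CPM in animal 1 and 28.4 in animal 2, and 8.78 and 111 in the subcutaneous ones.

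Within adipocyte nuclei, the depots were compared without fibre nuclei, though the muscle markers took 0.00549% and 0.0197% of intramuscular and 1.12% and 8.82% of subcutaneous UMIs. Of 4260 genes tested, 1.06% were called by edgeR, all lower in the intramuscular nuclei, and 0 of the 6 members tested, at an adjusted p of 0.999 each (also 0 with DESeq2, which called 1.34% of genes, and 0 at an unadjusted p under 0.05 in either test). Among clusters made without the 10 genes, 2 carried adipocyte markers. The first held 749 nuclei of the intramuscular library of animal 1 and 13 of its subcutaneous library, and the other held 7 and 129 nuclei of those libraries and 56 intramuscular and 52 subcutaneous nuclei of animal 2. ACAA2 stood at 1.03 (SE 0.81), with an intramuscular level 2.04 times the subcutaneous one in animal 1 (1.70 to 2.47) and 1.74 times in animal 2 (0.927 to 3.51). The same ratio in animal 1 was 2.80 in progenitor (1.76 to 4.64) and 2.31 in endothelial nuclei (1.56 to 3.52), so the sums of all 3 types held more ACAA2. Adipocyte markers also took more of the intramuscular UMIs of that animal, 0.205% against 0.124% in progenitor and 0.259% against 0.0716% in endothelial nuclei. The part of adipocyte RNA in the ratios of these types was not tested. HADHB, at -0.02 (SE 0.82), had a ratio of 1.02 in animal 1 (0.831 to 1.27) and 0.696 in animal 2 (0.275 to 1.84).

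The depot ratios of ACADVL and HADHA had intervals that did not overlap between the animals, a difference not tested beyond counting error. CPT1A, at 1.41 (SE 0.87), had a ratio of 1.16 in animal 1 (0.662 to 2.20) and 3.85 in animal 2 (1.17 to 19.99), and it was called only without the intramuscular library of animal 1, at 2.06. ACADVL, at 0.59 (SE 0.80), had a ratio of 0.543 in animal 1 (0.384 to 0.783) and 3.08 in animal 2 (1.19 to 10.1), with intervals on opposite sides of 1. The high values of animal 2 come from its intramuscular library with 42 adipocyte nuclei. HADHA, at 0.65 (SE 0.80), had a ratio of 0.956 in animal 1 (0.775 to 1.19) and 3.56 in animal 2 (1.40 to 11.6), where it rested on 5 subcutaneous UMIs. ACADM, at -1.09 (SE 1.02), did not pass. Of the 45 pathway genes tested, 0 were called, and with the animal as a block only PDK4 was higher.

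**Figure D5:**
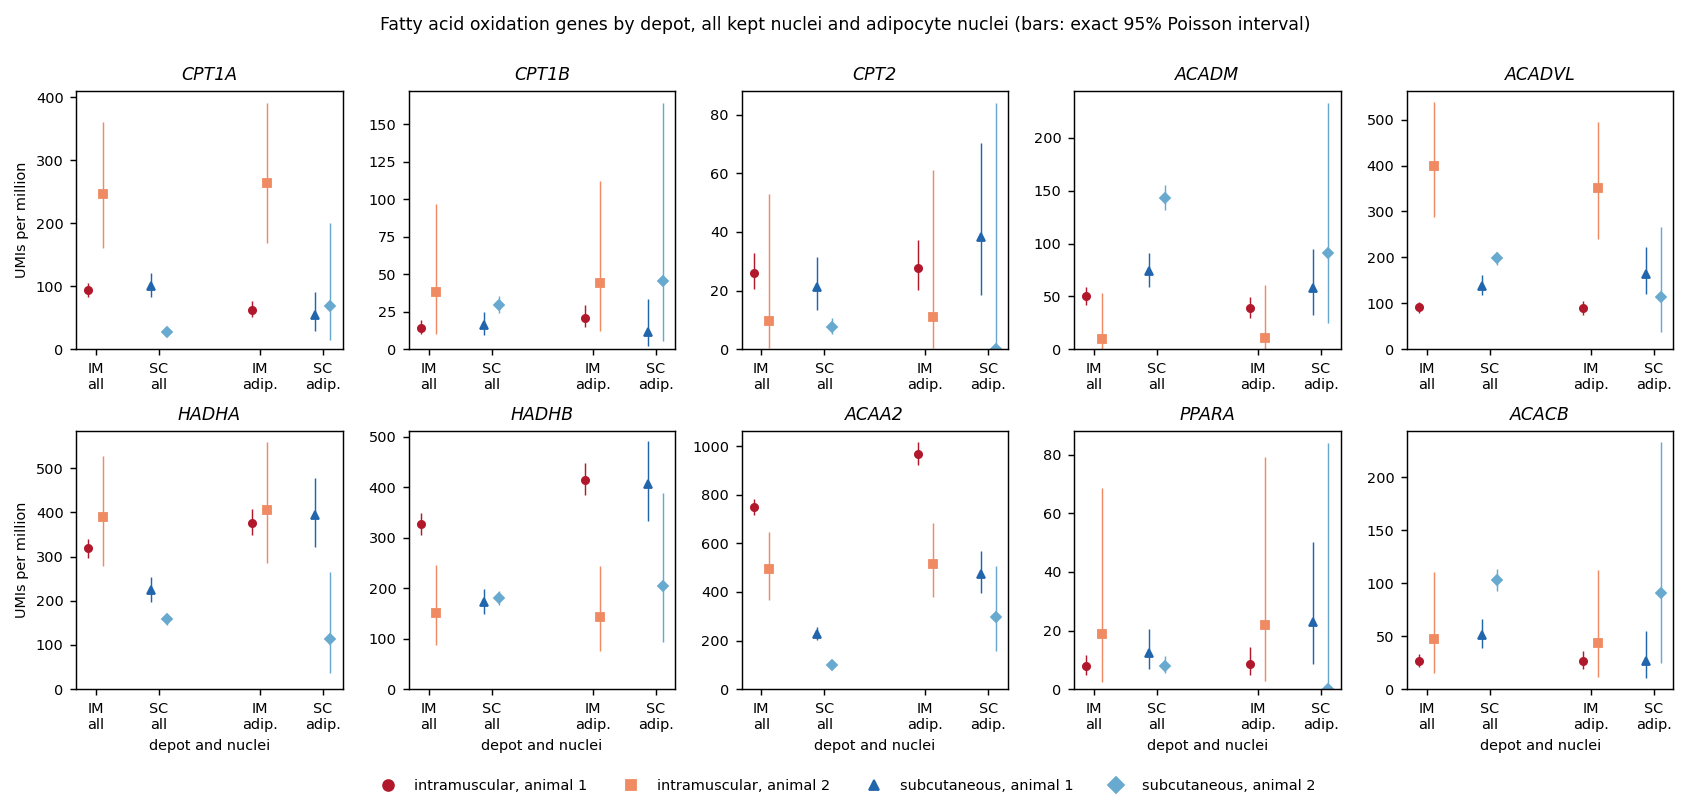
Level of each gene in CPM (vertical axis, from 0) in the intramuscular (IM) and subcutaneous (SC) libraries, over all kept nuclei and over adipocyte nuclei, with exact 95% Poisson intervals. For ACADM the SC values over all nuclei (73.8 and 143) exceed the IM values (50.0 and 9.48), and for ACAA2 the IM values (749 and 493) exceed the SC values (227 and 101).

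As a description, the genes whose levels ran most like those of CPT1A, CPT1B and ACACB over 16 library-by-type sums were looked up among 6098 genes. For CPT1A they were HNRNPD, ACBD3 and ENSBTAG00000022489 (Pearson's r of 0.93, 0.91 and 0.90 of log2 CPM with 10 added). For CPT1B they were ETNPPL, SLC29A2 and CCDC43 (0.78, 0.77 and 0.74), and for ACACB GPI, MCRIP2 and PLPP7 (0.82, 0.80 and 0.78). The sums share libraries, depth and muscle RNA.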

How the data were processed

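RNA of the nuclei preparations of 4 libraries was counted with Cell Ranger 6.0.1, per the file headers, against build ARS-UCD1.2, per the submitters' processing notes. For the annotation release, and for whether intronic reads entered, the sources used here say nothing. The authors deposited unnormalized whole-number UMI counts for every gene in each barcode.

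Nuclei with at least 200 genes and under 10% mitochondrially encoded UMIs were kept (8837 of 9893 barcodes). No doublet caller was run. A nucleus took the type whose markers had the highest mean z-score, by a margin of at least 0.2 over the next type and with at least 3 markers detected. Slow and fast fibre nuclei differed by at least 0.5 between both scores. The gates left 2152 nuclei without a type. As an alternative, types came from 17 clusters made without the 10 genes (scanpy 1.11.5, igraph 0.11.9), of which 5 were unnamed.

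UMIs were summed per library and type where at least 10 nuclei were present. Nuclei are not replicates: n counts libraries, and the p-values measure the spread between 2 animals. Sums were tested with edgeR 4.0.16 in R 4.3.3 (filterByExpr with a minimum count of 10, TMM, quasi-likelihood F test, Benjamini-Hochberg threshold 0.05). The SE is the absolute log2 fold change over the square root of F. DESeq2 1.42.0 was an alternative. Levels are UMIs per 1000000 UMIs of the nuclei summed (CPM). They carry exact 95% Poisson intervals, which cover counting error only, and 0 UMIs were given the upper limit of 3. Scripts were tested on simulated counts with the totals of these sums. Of genes changed 8-fold, the main fit recovered 47 of 74 in adipocyte over fibre nuclei and 91 of 93 in slow over fast nuclei. Between depots it recovered 1 of 100 in whole libraries and 13 of 88 in adipocyte nuclei, so a lack of calls there says little. Of genes changed 4-fold it recovered 12 of 60, 46 of 81, 0 of 96 and 0 of 85, in that order.

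Library or animal pairs the sums of each comparison, since nuclei of both types come from the same library, or both depots from the same animal. Deviations of same-numbered sums correlated at 0.151 (adipocyte and fibre), -0.085 (whole libraries), 0.111 (adipocyte nuclei) and 0.211 (slow and fast). The unblocked fit is the main one.

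The members and lists were chosen with earlier results of these data known. In each comparison the pathway genes past the threshold were named, up to 6 per direction by size of fold change, with the most expressed gene of each list. Called genes beyond these 6 were named after their values were seen. A RefSeq gene table of ARS-UCD2.0 was used only for overlaps and neighbours (10 of 10 symbols matched). None of the 10 genes overlapped another counted gene. No sequence is shown and no gene coordinate is given.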

Additional observations from a re-analysis of the deposited data

Results flagged for a closer look

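The 10 genes also had UMIs in barcodes that the nucleus filters left out and that no comparison used. The level was 2096.4 CPM (95% interval 571 to 5368, from 4 UMIs) in the 3 barcodes left out of the intramuscular library of animal 1 and 1689.2 (460.2 to 4325, from 4 UMIs) in the 17 of animal 2. It was 1095.3 (356 to 2556, from 5 UMIs) in the 7 barcodes left out of the subcutaneous library of animal 1 and 848.9 (755 to 951, from 295 UMIs) in the 1029 of animal 2, where muscle markers took 30.7% of UMIs. A count of 0 would allow 1572, 1267, 657 and 8.63 CPM in these sets of barcodes, in the same order. That limit stands for 3 UMIs, so the first 3 sets, with 4 or 5 UMIs, lie just above it, and their intervals reach below it.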

How the results depend on the processing

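In adipocyte over fibre nuclei, 2157 genes and 2 of the 10 members were called. DESeq2 called 1193 genes and 0 members, the stricter gate 1217 and 0, no count filter 3773 genes, library totals 1 member, and the replicate block 1 member. Leaving out 1 sum gave 801 to 2905 genes (1043 without the adipocyte sum of animal 1) and 0 to 4 members. The sign turned for ACADVL with library totals (0.079; 0.33 with the adipocyte nuclei of all 4 libraries) and without the fibre sum of animal 2 (0.42). HADHA turned with library totals (0.85; 0.91 with 4 libraries), with adipocyte nuclei under 1% muscle UMIs (0.31) and without the adipocyte sum of animal 2 (0.27). HADHB turned under the same settings (0.96, 0.74, 0.23 and 0.22) and without the fibre sum of animal 2 (0.058). With adipocyte nuclei under 1% muscle UMIs only 1 adipocyte sum was left, that of animal 1, so this setting also leaves out animal 2. Its median log2 fold change was -0.33 for the 6 members tested, beside 0.75 for all genes. The part of muscle RNA in its sign changes was not tested.

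Between whole libraries, 170 genes were called, against 346 with DESeq2, 444 without count filter, 0 without fibre and satellite nuclei, and 24 to 411 with 1 library left out. With library totals ACADVL (0.51), HADHB (0.46) and PPARA (0.12) turned, as did ACADVL (0.24) and HADHB (0.36) without fibre and satellite nuclei, HADHB with nuclei of at least 500 genes (0.050) and CPT2 with the replicate block (-0.12). With 1 library left out, CPT1B ranged over -1.70 to 0.30, CPT2 over -1.22 to 0.54, ACADVL over -1.61 to 0.57, HADHA over -0.087 to 0.51, HADHB over -1.17 to 0.41 and PPARA over -0.90 to 0.074.

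In adipocyte nuclei between depots, 45 genes were called, against 100 without count filter, 23 with the stricter gate and 32 to 312 with 1 library left out, where 0 to 1 members were called. HADHB turned without count filter (0.080). With 1 library left out, ACADVL ranged over -0.52 to 1.13 and HADHB over -1.28 to 0.57. In slow over fast nuclei, 13 genes were called, against 52 with the replicate block, 30 with the stricter gate and 4 to 39 with 1 sum left out. ACACB turned with the block (-0.0043), the stricter gate (-0.28) and the loss of the fast sum of animal 1 (-0.27). Slow against fast nuclei of at least 500 genes could not be fitted, with 1 sum each. The cause of these changes was not tested. The block changed no other member's call. Depth limits the member folds where sums are small, with 0 to 6 UMIs per member in the fast and 0 to 9 in the slow nuclei of animal 1, and 0 to 13 in the subcutaneous adipocyte nuclei of animal 2.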
